A study of Mus musculus with 9 samples.

Results

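The genes of the regulatory cytokines interleukin 10 (IL-10), interleukin 35 (IL-35) and TGF-beta 1 were examined in splenic B cells. The 4 genes were taken by symbol, namely Il10, Il12a and Ebi3, which encode the 2 chains of IL-35, and Tgfb1; all 4 were found among 22596 gene features of the coding reference, and all 4 were among the 11247 genes that were abundant enough to be tested. RNA-sequencing had been performed by the authors on B cells of 9 mice of strain C57/BL6NTac, with 1 library per mouse. The groups were wildtype, Eµ-TCL1 and Eµ-MTCP1, with 3 mice in each. In both transgenic lines an immunoglobulin heavy chain enhancer and promoter drive a human oncogene in B cells, MTCP1 in one and TCL1 in the other, and a leukemia resembling human CLL develops. The Eµ-MTCP1 mice all descend from founder Z36 and so share 1 transgene integration, the transgenic mice carried a marked disease burden, and the age of each mouse is not given in the sources used here. B cells had been obtained by negative selection from whole spleen.

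IL-10 is made by regulatory B cells and by many CLL cells, and it signals through Il10ra and Il10rb to limit the action of T cells and macrophages. IL-35 is a pair of Ebi3 with the p35 chain that Il12a encodes. Each chain has other partners, since p35 joins p40 of Il12b to form IL-12, and Ebi3 joins p28 of Il27 to form IL-27, so that mRNA of either chain alone does not show which cytokine is made. TGF-beta 1 is secreted in a latent form, is freed by integrins and proteases, and signals through Tgfbr1 and Tgfbr2 to Smad proteins.

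The labels were checked on the human transgenes in the authors' normalized values, which are on a log2-like scale. TCL1A lay between 14.9 and 15.6 in Eµ-TCL1 mice and at 6.96 or below in all other mice, and MTCP1 lay between 11.1 and 12.3 in Eµ-MTCP1 mice and at 6.19 or below elsewhere. Libraries held between 6464089 and 8053017 reads assigned to coding sequences. Levels are given as CPM, the reads scaled to a common library size. By assigned reads alone, 3 reads correspond to 0.373 to 0.464 CPM. The CPM printed here also include a TMM scaling factor per library, from 0.912 in Z2641 to 1.18 in Z2755. With it, 3 reads can lie outside that range, as at 0.325 CPM in Z2755 and a floor of 0.470 CPM in Eµ-MTCP1 mice. The 5 B-cell markers Cd79a, Cd79b, Ms4a1, Pax5 and Cd22 summed to between 5567 and 8576 CPM in every library, and none of them passed the test used below. Pax5 nevertheless lay below every wildtype mouse in both lines, at 28.5 to 47.4 CPM against 53.3 to 58.3 CPM, and Cd22 did so in Eµ-TCL1 mice, at 566 to 728 against 1128 to 1307 CPM (log2 -0.90, adjusted p = 0.0517, edgeR). Cd79a and Cd79b went the other way in Eµ-MTCP1 mice and lay above every wildtype mouse. Cd79a was at 3634 to 4074 against 2592 to 3347 CPM, and Cd79b at 2299 to 2893 against 1599 to 2126 CPM. Wildtype mouse Z2755 had been sequenced on another lane than the other 8, and it stood apart together with Eµ-MTCP1 mouse Z2641 in the granulocyte gene Mpo, at 2318 and 935 CPM against 12.9 to 133 CPM in the other libraries. T-cell genes summed to 59.8 CPM in Eµ-TCL1 mouse B4376 and to between 5.96 and 24.5 CPM elsewhere.

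All 4 genes lie on the forward strand of genome build GRCm38: Il10 (ENSMUSG00000016529) at chr1:131019845-131024974, Il12a (ENSMUSG00000027776) at chr3:68690644-68698547, Ebi3 (ENSMUSG00000003206) at chr17:55952640-55957022 and Tgfb1 (ENSMUSG00000002603) at chr7:25687002-25705077. Il10 and Ebi3 have 1 transcript each in the references, with coding sequences of 537 and 687 bases. Il12a has 2 coding transcripts that start at different first exons, with coding sequences of 711 and 648 bases. The start of both is shown because these bases alone separate the 2 coding sequences; capitals mark the 63 bases that Il12a-201 holds beyond Il12a-202, which lie at chr3:68690739-68690741 and from chr3:68691491 on, and lower case marks the 15 bases up to chr3:68691565 with which both continue.
Il12a-201: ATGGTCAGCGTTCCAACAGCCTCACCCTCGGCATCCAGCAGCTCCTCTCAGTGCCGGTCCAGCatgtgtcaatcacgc
Il12a-202: atgtgtcaatcacgc

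Tgfb1 has a main transcript, Tgfb1-201, with a coding sequence of 1173 bases, and a short transcript annotated for nonsense-mediated decay, Tgfb1-202, with 150 bases (chr7:25689041-25692386, spliced). That short sequence is shown because it sets how Tgfb1 levels can be read; capitals mark the 140 bases outside the coding sequence of Tgfb1-201.
Tgfb1-202: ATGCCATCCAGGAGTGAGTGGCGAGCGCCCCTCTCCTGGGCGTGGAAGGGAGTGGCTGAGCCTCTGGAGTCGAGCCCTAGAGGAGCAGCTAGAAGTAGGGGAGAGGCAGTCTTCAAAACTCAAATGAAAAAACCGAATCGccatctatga

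In the reference of coding sequences Tgfb1-202 had an effective length of 6 bases, so that its 1 to 11 reads per library were turned into 8.24 to 100 TPM, the reads scaled to transcript length and library size, while the 82.0 to 252 reads of Tgfb1-201 gave 5.52 to 19 TPM. Levels between genes are therefore given here as TPM of the protein-coding transcripts in the reference of full-length transcripts, where Tgfb1-202 received no reads, and differences between groups are given from reads.

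Il10 rose in both transgenic lines. The reads of Il10 were 12, 18 and 10 in wildtype mice Z2754, Z2755 and Z2785. In Eµ-MTCP1 mice Z2551, Z2606 and Z2641 they were 121, 57 and 65, and in Eµ-TCL1 mice B4376, B4437 and C1594 they were 191, 95 and 111. Every transgenic mouse lay above every wildtype mouse, with Z2551 and B4376 highest in their lines. After scaling, the level was 1.65 ± 0.262 CPM in wildtype, 17.8 ± 7.64 CPM in Eµ-TCL1 and 12.9 ± 6.16 CPM in Eµ-MTCP1 mice (mean ± SD, n = 3 each). The change was 7.70-fold in Eµ-MTCP1 mice (log2 fold change 2.94 ± 0.47 SE, adjusted p = 0.00343, edgeR quasi-likelihood test with Benjamini-Hochberg adjustment) and 10.7-fold in Eµ-TCL1 mice (3.42 ± 0.47, adjusted p = 0.00161, edgeR). Both comparisons use the same 3 wildtype mice. On the log2-like scale of the authors' normalized values the differences were smaller. They were 1.03 in Eµ-MTCP1 and 1.32 in Eµ-TCL1 mice (adjusted p = 0.0186 and 0.00535, limma). In bulk RNA, more cells that express a gene and more RNA per cell cannot be told apart. Without mouse B4376, which had the highest Il10 and also the most T-cell marker RNA, the Eµ-TCL1 log2 fold change was 3.02 (adjusted p = 0.00516, edgeR).

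**Figure D1:**
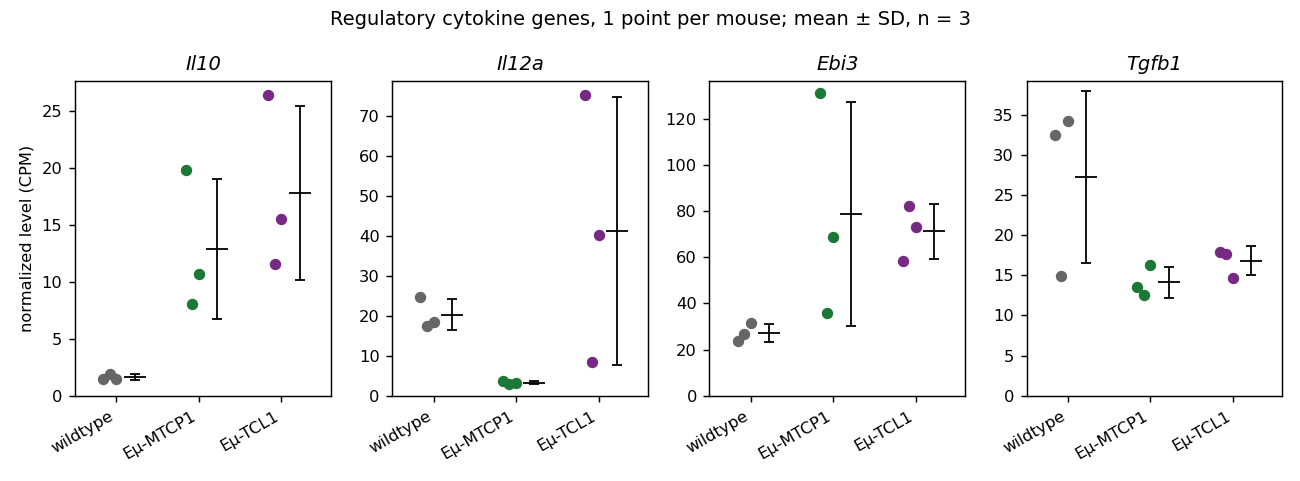
Normalized level (CPM, y axis) of the 4 genes in each mouse (points) by group (x axis), with the mean and SD over 3 mice as a bar beside them. Il10 lies between 8.07 and 26.4 CPM in transgenic mice and at 1.95 CPM or below in wildtype mice, while Il12a spans 8.33 to 75.1 CPM in Eµ-TCL1 mice and 2.97 to 3.60 CPM in Eµ-MTCP1 mice.

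Ebi3, the chain that IL-35 shares with IL-27, had the highest TPM of protein-coding transcripts of the 4 genes in every mouse. Its reads were 191, 248 and 209 in wildtype mice Z2754, Z2755 and Z2785, 803, 253 and 418 in Eµ-MTCP1 mice Z2551, Z2606 and Z2641, and 424, 672 and 523 in Eµ-TCL1 mice B4376, B4437 and C1594. After scaling to CPM neither transgenic group overlapped wildtype, although the lowest Eµ-MTCP1 mouse, Z2606 at 35.8 CPM, lay close to the highest wildtype mouse, Z2785 at 31.5 CPM. Ebi3 rose in Eµ-MTCP1 mice, from 27.3 ± 3.97 to 78.7 ± 48.6 CPM (mean ± SD, n = 3), a 2.88-fold change (log2 1.53 ± 0.39, adjusted p = 0.0359, edgeR). In Eµ-TCL1 mice it stood at 71.3 ± 12 CPM, 2.61-fold the wildtype level, with an adjusted p just over the threshold of 0.05 (log2 1.38 ± 0.39, adjusted p = 0.0525, edgeR). The call in Eµ-MTCP1 mice was lost without Z2551, where the log2 fold change was 0.94 (adjusted p = 0.113, edgeR), and without Z2641 or any 1 wildtype mouse (adjusted p between 0.0538 and 0.142, edgeR); over all alternatives the adjusted p ran from 0.00213 to 0.145. The gene Gm16712 lies antisense to the end of Ebi3 and held 2.29 to 14% as many reads as Ebi3 in the full-length reference; the strand setting of the counting is not given in the sources used here, and reads of the overlapping part could belong to either gene.

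Il12a, which encodes the p35 chain, fell in Eµ-MTCP1 mice. Wildtype mice Z2754, Z2755 and Z2785 had 200, 162 and 123 reads, and Eµ-MTCP1 mice Z2551, Z2606 and Z2641 had 22, 21 and 20 reads. These 3 Eµ-MTCP1 mice were close to each other, at 3.29 ± 0.313 CPM, and far below the wildtype level of 20.3 ± 3.89 CPM (mean ± SD, n = 3), a 6.14-fold lower level (log2 -2.62 ± 0.64, adjusted p = 0.0285, edgeR). The adjusted p was between 0.0565 and 0.102 when any of the 6 mice of these groups was left out, with a log2 fold change between -2.75 and -2.46 (edgeR). Dendritic-cell and NK-cell markers lay lower beside it, while the lists of other cells overlapped wildtype or lay higher. Dendritic-cell genes summed to 21.6 to 49.0 CPM in wildtype and 3.79 to 18.6 CPM in Eµ-MTCP1 mice, and the NK-cell genes Ncr1, Klrb1c, Klrk1, Gzma and Prf1 to 19.1 to 44.8 and 1.15 to 12.6 CPM, without overlap in either list. T-cell sums (6.22 to 24.5 against 5.96 to 12.7 CPM in wildtype) and plasma-cell sums (316 to 2840 against 822 to 1348 CPM) overlapped wildtype. So did the lists of monocytes, macrophages and granulocytes and of erythroid cells and platelets. The regulatory T-cell list was higher, at 25.5 to 46.3 against 4.66 to 6.55 CPM. Of this, Ctla4, which CLL B cells also express, made 24.1 to 44.8 CPM in Eµ-MTCP1 mice. The part of any of these cells in the Il12a level was not tested.

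In Eµ-TCL1 mice Il12a was spread widely, with 544 reads in B4376, 68 in B4437 and 288 in C1594. In CPM, B4376 and C1594 lay above every wildtype mouse and B4437 below every one, so that the group mean of 41.2 ± 33.4 CPM (SD, n = 3) was 2.03-fold the wildtype mean without passing the test (log2 1.02 ± 0.57, adjusted p = 0.303, edgeR). The log2 value moved in either direction with the mouse left out. It was 1.49 without B4437 (adjusted p = 0.0219, edgeR) and 0.26 without B4376 (adjusted p = 0.819, edgeR). B4376 also had the most T-cell marker RNA, while C1594 had less of it than B4437 (10.8 against 15.2 CPM) and more Il12a. The part of that RNA in the Il12a levels was not tested.

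Of the 4 genes, 3 passed the test in Eµ-MTCP1 against wildtype, where 9.37% of the 11247 genes did (5.43% higher and 3.94% lower), 2 of the 3 being higher and 1 lower. In Eµ-TCL1 against wildtype 1 of the 4 passed, higher, where 9.15% of genes did (5.07% higher and 4.08% lower). With 4 members these shares are descriptions only. The median log2 fold change of the 4 genes was 0.29 and 1.20 in the 2 comparisons, beside -0.02 and -0.01 over all genes tested.

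Tgfb1 did not pass the test in either line, although its values lay mostly below wildtype. The reads were 263, 138 and 227 in wildtype mice Z2754, Z2755 and Z2785, 83, 88 and 99 in Eµ-MTCP1 mice Z2551, Z2606 and Z2641, and 130, 144 and 105 in Eµ-TCL1 mice B4376, B4437 and C1594. Wildtype mouse Z2755, at 14.9 CPM, overlapped both transgenic groups, which spanned 12.5 to 16.3 and 14.7 to 17.9 CPM. The log2 fold change was -0.95 ± 0.32 in Eµ-MTCP1 mice (adjusted p = 0.0995, edgeR) and -0.70 ± 0.32 in Eµ-TCL1 mice (adjusted p = 0.206, edgeR). Without Z2755, the library of the other lane with the most Mpo RNA, these values were -1.27 (adjusted p = 0.0274, edgeR) and -1.02 (adjusted p = 0.06, edgeR). In the deposited count table, which counts reads over whole genes, they were -1.0 (adjusted p = 0.0334, edgeR) and -0.92 (adjusted p = 0.0465, edgeR). With offsets for transcript length they were larger but not called, at -1.72 (adjusted p = 0.0523, edgeR) and -1.58 (adjusted p = 0.0677, edgeR).

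**Figure D2:**
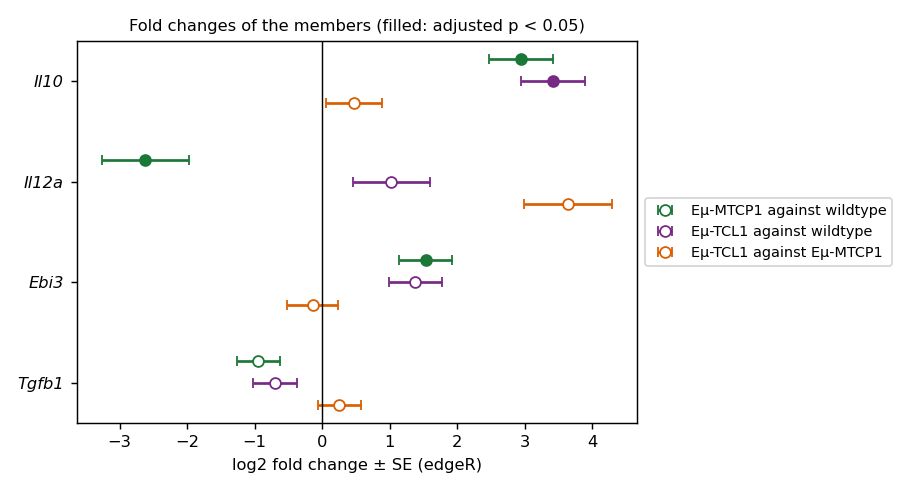
Log2 fold change (x axis, edgeR) with its standard error for each gene (y axis) in 3 comparisons (colours), filled where the adjusted p was under 0.05. Il10 is filled in both comparisons with wildtype, Il12a and Ebi3 in that of Eµ-MTCP1, and no point of the direct comparison is filled.

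Eµ-TCL1 mice were then compared with Eµ-MTCP1 mice. None of the 4 genes passed, where 0.0445% of all genes did (0.0267% higher and 0.0178% lower). Il12a differed most, with every Eµ-TCL1 mouse above every Eµ-MTCP1 mouse and a fitted ratio of 12.5 (log2 3.64 ± 0.65, 95% interval 2.19 to 5.09), but its p of 0.000209 became 0.168 after adjustment over all genes (edgeR). This gene was named by the study as higher in Eµ-TCL1 mice from these same libraries, so that its choice was not independent of the values. The call turned on the tool and on B4437: the adjusted p was 2.37e-06 with DESeq2, 0.0346 with edgeR without a filter on low counts, and 0.00168 with edgeR without B4437 (log2 4.13). Without B4376 the log2 fold change was smaller, at 2.88 (adjusted p = 0.301, edgeR). For Il10 the log2 difference was 0.47 with an interval of -0.45 to 1.39, for Ebi3 -0.14 with an interval of -0.98 to 0.70, and for Tgfb1 0.25 with an interval of -0.47 to 0.96. These intervals are wide, and a missed threshold does not show that the lines were alike.

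The order of the genes by level was read from TPM, which corrects for transcript length. In wildtype mice Ebi3 was highest (30.3 to 38.1 TPM), Il12a (11.9 to 20.4 TPM) and Tgfb1 (10.1 to 18.4 TPM) overlapped, and Il10 was lowest (1.64 to 2.28 TPM). In Eµ-MTCP1 mice Ebi3 led again (32.9 to 121 TPM), followed by Il10 (8.14 to 17.3 TPM) and Tgfb1 (5.31 to 6.34 TPM), and Il12a was lowest (1.42 to 1.53 TPM), with no overlap between neighbours. In Eµ-TCL1 mice Ebi3 spanned 64.8 to 91.0 TPM, and below it the ranges of Il12a (5.73 to 46.8 TPM) and Il10 (10.8 to 26.1 TPM) overlapped, as did those of Il12a and Tgfb1 (5.89 to 8.87 TPM). Part of this order rests on counting protein-coding transcripts alone. Over all transcripts Tgfb1 was at 32.0 to 44.2 TPM in wildtype mice, where it overlapped Ebi3, and at 7.98 to 17.3 TPM in Eµ-MTCP1 mice, where it overlapped Il10, while Il12a in Eµ-TCL1 mice reached 66.5 TPM and overlapped Ebi3. Il10 was still the lowest in wildtype mice, and Il12a, at 2.87 to 3.51 TPM, in Eµ-MTCP1 mice.

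**Figure D3:**
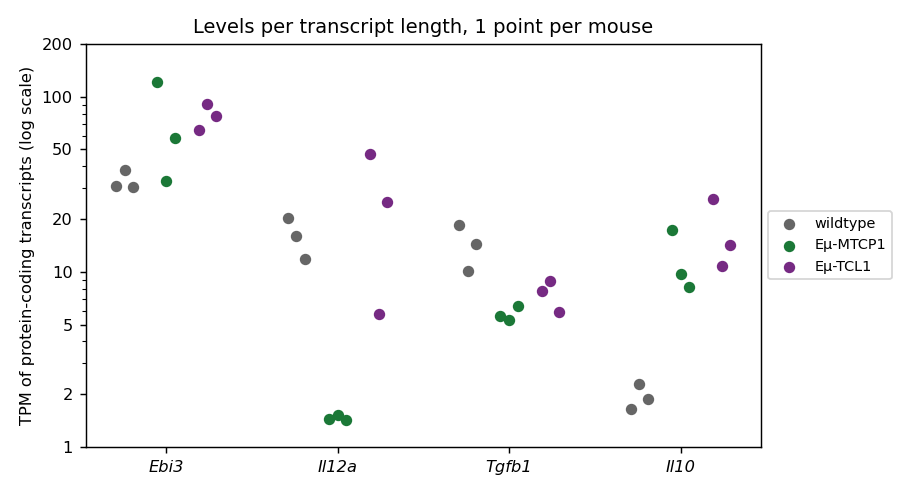
TPM of the protein-coding transcripts (y axis, log scale) of the 4 genes (x axis) in each mouse (points, coloured by group). Il10 is the lowest of the 4 genes in wildtype mice and Il12a the lowest in Eµ-MTCP1 mice, where it lies between 1.42 and 1.53 TPM.

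The balance of the IL-35 chains in mRNA differed between mice. By TPM of the protein-coding transcripts, Ebi3 stood at 1.52, 2.38 and 2.55 times the TPM of Il12a in wildtype mice Z2754, Z2755 and Z2785. In Eµ-MTCP1 mice Z2551, Z2606 and Z2641 the ratio was 84.0, 21.5 and 40.7, above that of every other mouse. In Eµ-TCL1 mice B4376, B4437 and C1594 it was 1.38, 15.9 and 3.07, on either side of the wildtype values. With all transcripts of Il12a counted, retained introns included, the ratio was 1.21 to 1.86 in wildtype mice, 36.0, 9.37 and 20.2 in Z2551, Z2606 and Z2641, and 0.975, 13.8 and 2.06 in B4376, B4437 and C1594, so that B4437 then lay above Z2606. On the protein-coding scale Il10 stood at 0.0891, 0.226 and 0.130 times the TPM of Tgfb1 in wildtype mice Z2754, Z2755 and Z2785 and at 1.22 to 3.34 times in the 6 transgenic mice. With all transcripts of Tgfb1 counted, it stood at 0.0371 to 0.0709 times in wildtype and at 0.469 to 1.55 times in transgenic mice, below Tgfb1 in Z2641 and B4437. Every transgenic mouse lay above every wildtype mouse in this second ratio on either scale.

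The 2 references disagreed on which Il12a transcript was present. In the reference of coding sequences, Il12a-201 took all reads in 4 mice, among them B4437 and C1594, and 0 of 22 reads in Z2551. In the full-length reference Il12a-201 took no reads in any mouse, Il12a-202 took 46.9 to 90.7% of the gene's reads, and transcripts with a retained intron took the rest. The gene total kept its pattern in both, with a log2 fold change in Eµ-MTCP1 mice of -2.62 from either reference, while the choice between the 2 first exons cannot be read from these values.

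**Figure D4:**
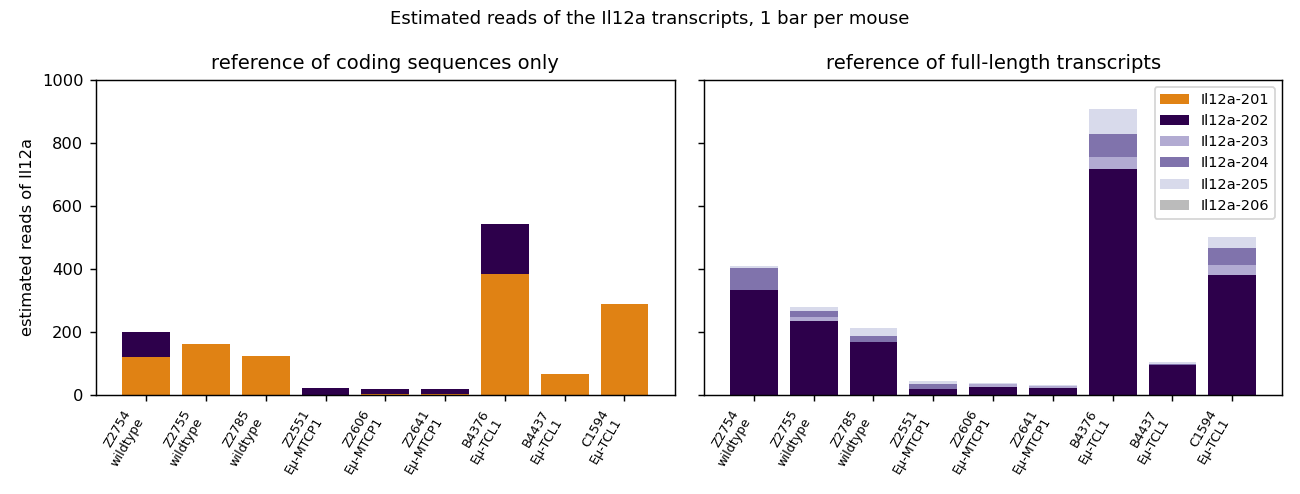
Estimated reads (y axis) of each Il12a transcript (colours) per mouse (x axis) in the reference of coding sequences and in that of full-length transcripts. Il12a-201 leads in the first for most mice and is absent from the second, while the total is lowest in Eµ-MTCP1 mice in both.

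The other chains of these cytokine families were at or near the limit of detection. Il12b, which would pair with p35 to form IL-12, had 0 reads in all 9 libraries in the reference of coding sequences, from which the reads of this paragraph are taken, and Il23a had at most 1 read. Il27, the other partner of Ebi3, had 0 to 10 reads. Il19, Il20 and Il22 had 0 reads, and Il24 and Tgfb2 had at most 5 and 6. In the full-length reference Il12b reached 0.0499 TPM in wildtype and Il19 0.0873 TPM in Eµ-TCL1 mice. A count of 0 at these depths does not show that a transcript is absent, and the few reads of Il27, Il24 and Tgfb2 were too low for the test. Of the 9 genes of this list only Tgfb3, a second TGF-beta ligand, was abundant enough to be tested. It had 16, 19 and 24 reads in wildtype mice, 1, 2 and 0 in B4376, B4437 and C1594 of the Eµ-TCL1 line, and 0 in each Eµ-MTCP1 mouse. Tgfb3 entered the test through its wildtype reads alone, so its calls as lower (adjusted p = 0.0176 in Eµ-MTCP1 and 0.0439 in Eµ-TCL1 mice, edgeR) are not independent of that filter. With 3 reads set as the floor in each library it was at least 5.43-fold lower in Eµ-MTCP1 mice.

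Where a pair of values is given without a group from here on, the first is for Eµ-MTCP1 and the second for Eµ-TCL1 mice. Among the 10 receptor genes, 8 were tested. Il27ra, which binds IL-27 and is also described as a chain of the IL-35 receptor of B cells, fell in both lines, from 76.9 to 86.1 CPM in wildtype mice to 29.1 to 48.5 CPM in Eµ-TCL1 mice (log2 -1.16 ± 0.27, adjusted p = 0.0247, edgeR) and 15.5 to 29.3 CPM in Eµ-MTCP1 mice (-1.75 ± 0.28, adjusted p = 0.0035, edgeR). Il12rb1, a receptor chain for IL-12 and IL-23, rose in Eµ-TCL1 mice, from 4.94 to 9.21 CPM in wildtype to 16.9 to 34.1 CPM (log2 1.78 ± 0.35, adjusted p = 0.0106, edgeR). Of the other chains through which IL-35 is described to signal, Il12rb2 had 0 to 12 reads and was not tested. Il6st (gp130) did not pass, and ranged from 6.06 to 11 CPM in wildtype, 8.45 to 84.5 CPM in Eµ-TCL1 and 14.3 to 73.2 CPM in Eµ-MTCP1 mice (adjusted p = 0.0958 and 0.0699, edgeR).

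The IL-10 receptor chains and the TGF-beta receptors did not pass either. Il10rb lay between 91.1 and 104 CPM in wildtype mice and at 68.5 CPM or below in every transgenic mouse (adjusted p = 0.0658 and 0.118, edgeR). Il10ra had log2 fold changes of -0.16 and -0.71, Tgfbr1 of -0.98 and -1.52, and Tgfbr2 of -0.66 and -0.31. Tgfbr3 had 0 to 6 reads and was not tested, and the accessory receptor Eng had 0 to 28 reads and did not pass.

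Of 15 signal transducers, 14 were tested, and 3 passed as lower in each line and none as higher, where 3.94% and 4.08% of all genes tested passed as lower. Stat4, which is activated by IL-12 and IL-35, had 392, 352 and 226 reads in wildtype mice Z2754, Z2755 and Z2785 and between 1 and 21 reads in every transgenic mouse. Its log2 fold change was -5.77 ± 0.53 in Eµ-MTCP1 (adjusted p = 0.000266, edgeR) and -4.35 ± 0.47 in Eµ-TCL1 mice (adjusted p = 0.000442, edgeR). NK cells also express Stat4, and the part of the lower NK-cell sums of Eµ-MTCP1 mice in its level was not tested. Smad7, an inhibitor that TGF-beta signals themselves induce, had 78, 198 and 79 reads in wildtype and 1 to 16 in transgenic mice, with log2 fold changes of -4.92 ± 0.87 (adjusted p = 0.00635, edgeR) and -3.97 ± 0.80 (adjusted p = 0.012, edgeR). Smad2, a receptor-activated Smad, fell in Eµ-MTCP1 mice (log2 -0.66 ± 0.18, adjusted p = 0.045, edgeR), and Jak1 fell in Eµ-TCL1 mice (-0.87 ± 0.19, adjusted p = 0.0171, edgeR). Stat4 and Smad7 reached the level of the abundance filter in all mice of the wildtype group alone. Their calls, and the count of calls in this list, are therefore not independent of that filter. The median log2 fold change of the list was -0.50 and -0.40.

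Of 15 transcription and mRNA regulators of Il10, 14 were tested. Bhlhe40, a basic helix-loop-helix repressor known to restrain Il10 in lymphocytes, had 1802, 2042 and 1752 reads in wildtype mice Z2754, Z2755 and Z2785 and 106 to 414 in transgenic mice. Bhlhe40 fell 10.5-fold in Eµ-MTCP1 (adjusted p = 0.000425, edgeR) and 6.84-fold in Eµ-TCL1 mice (adjusted p = 0.000908, edgeR). Its close relative Bhlhe41 rose 7.93-fold and 3.65-fold (adjusted p = 0.00225 and 0.0211, edgeR). Prdm1, which encodes Blimp-1, a driver of plasma cell differentiation and of Il10 in T cells, rose 4.32-fold and 3.55-fold (adjusted p = 0.023 and 0.0407, edgeR), and Nfatc1 rose 2.15-fold and 2.24-fold (adjusted p = 0.00826 and 0.00613, edgeR). Ets1 fell in Eµ-MTCP1 mice (log2 -1.02 ± 0.24, adjusted p = 0.0253, edgeR). Thus 3 rose and 2 fell in Eµ-MTCP1 mice, and 3 rose and 1 fell in Eµ-TCL1 mice, with list medians of -0.21 and -0.22, while of all genes tested 5.43% and 5.07% passed as higher and 3.94% and 4.08% as lower. Maf, an activator of Il10 in T cells and macrophages, had 0 to 2 reads in all libraries.

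**Figure D5:**
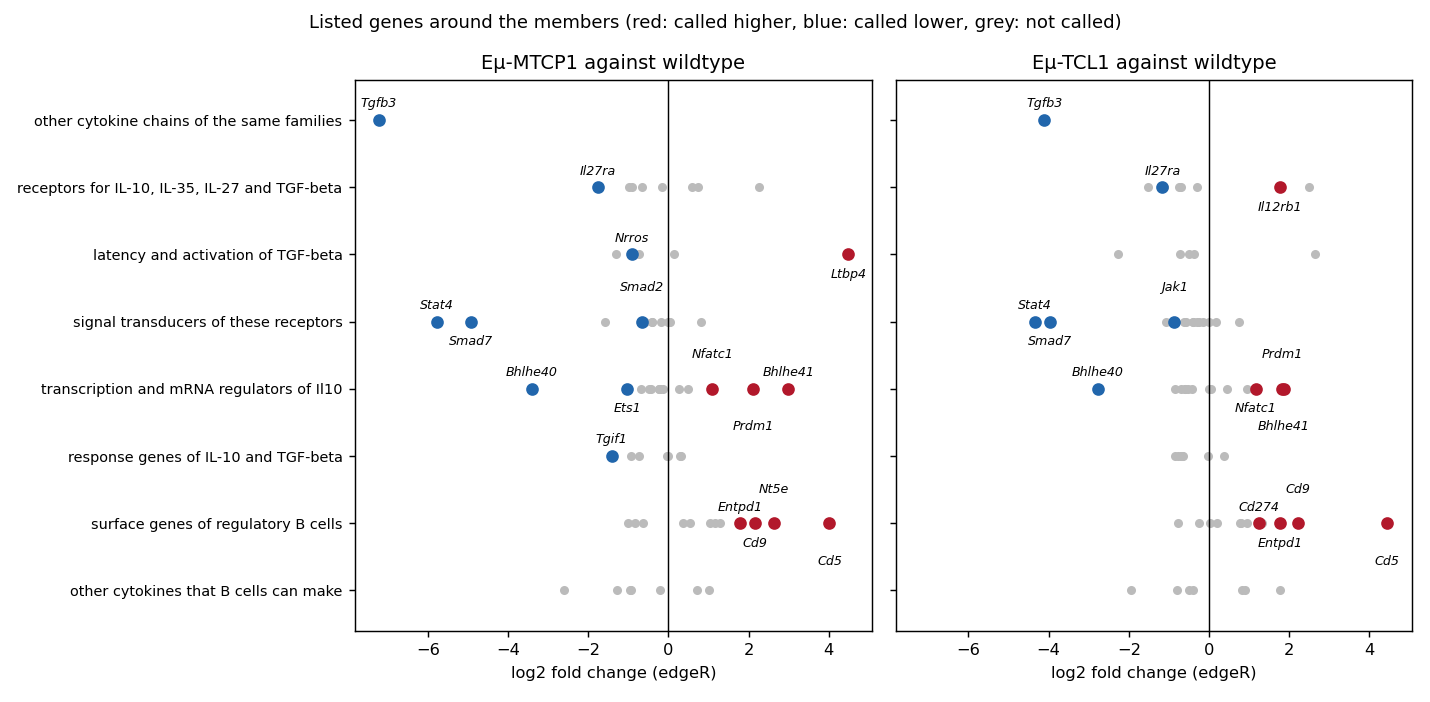
Log2 fold change (x axis, edgeR) of each tested gene of 8 lists (y axis) in both comparisons with wildtype, red where called higher, blue where called lower and grey where not called. Stat4, Smad7 and Bhlhe40 lie to the far left in both panels and Cd5 to the far right; the position of Tgfb3 rests on groups at or near 0 reads and is no measure of size.

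Of the surface genes used to mark regulatory B cells, all 12 were tested, and 4 rose and none passed as lower in each line, with median log2 fold changes of 1.10 and 0.88 over the list, while 5.43% and 5.07% of all genes tested passed as higher and 3.94% and 4.08% as lower. Cd5 rose 16.2-fold in Eµ-MTCP1 (adjusted p = 0.00388, edgeR) and 21.8-fold in Eµ-TCL1 mice (adjusted p = 0.00244, edgeR), and the tetraspanin Cd9 rose 4.48-fold and 4.62-fold (adjusted p = 0.00937 and 0.00836, edgeR). Entpd1, which encodes CD39 and degrades extracellular ATP, rose 3.46-fold and 3.40-fold (adjusted p = 0.0325 and 0.0342, edgeR). Nt5e, which encodes CD73 and makes adenosine, rose in Eµ-MTCP1 mice (log2 2.63 ± 0.59, adjusted p = 0.0208, edgeR), and Cd274, which encodes PD-L1, rose in Eµ-TCL1 mice (1.24 ± 0.22, adjusted p = 0.0061, edgeR). Not all members lay higher. Cd1d1, which encodes the lipid-presenting molecule used to define regulatory B cells in the spleen, stood at 82.8 ± 13.3 CPM in wildtype mice, against 48.7 ± 31.9 CPM in the Eµ-TCL1 and 41.5 ± 17.3 CPM in the Eµ-MTCP1 line (mean ± SD, n = 3 each), with the highest Eµ-MTCP1 mouse at 54.5 CPM and the lowest wildtype mouse at 75.0 CPM, and it did not pass (log2 -0.77 and -1.0 in that order, adjusted p = 0.312 and 0.192, edgeR). Cd200 lay at 8.07 to 19.5 CPM in Eµ-MTCP1 mice, under every wildtype mouse, and did not pass either (log2 -0.62, adjusted p = 0.265, edgeR). Cd5 also marks the leukemic cells of these models.

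Of 11 genes of latency and activation of TGF-beta, 5 were tested and 2 passed in Eµ-MTCP1 mice. Nrros, which anchors latent TGF-beta on myeloid cells, fell in Eµ-MTCP1 mice (log2 -0.90 ± 0.22, adjusted p = 0.0292, edgeR), while Ltbp4, a latency protein, rose there from 0 to 6 reads in wildtype mice to 108, 57 and 9 reads in Z2551, Z2606 and Z2641 (adjusted p = 0.0255, edgeR). None of the 5 passed in Eµ-TCL1 mice (smallest adjusted p for Nrros, 0.0686, edgeR). Of 9 response genes 7 were tested, and Tgif1, a corepressor of Smad signalling, was alone in passing, lower in Eµ-MTCP1 mice (log2 -1.41 ± 0.24, adjusted p = 0.00491, edgeR). Other cytokines of B cells were 12 in number, 7 of them tested, and none passed. Lta, which encodes lymphotoxin alpha, ranged from 32.6 to 39.0 CPM in wildtype and from 0.142 to 15.2 CPM in transgenic mice (adjusted p = 0.135 and 0.234, edgeR), and Il6 had at most 2 reads. Over all 93 other listed genes, 68 were tested, and 17 passed in Eµ-MTCP1 and 14 in Eµ-TCL1 mice, or 25.0% and 20.6%, beside 9.37% and 9.15% of all genes tested; the lists were drawn up with earlier results known. Of those called, Stat4, Smad7 and Tgfb3 reached the level of the abundance filter in all 3 mice of the wildtype group alone, so that they entered the test through the group where they were high, and Cd5, Nt5e and Ltbp4 did so through the transgenic groups. The shares are therefore a description and nothing particular to these lists is read from them.

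Genes with the most similar pattern over the 9 libraries were sought among 9001 genes by Pearson's coefficient of log2 CPM, as a description. For Il10 these were E030030I06Rik (0.980), Cyfip1 (0.974) and Lims1 (0.973), and for Ebi3 Zmynd8 (0.975), Mtx2 (0.959) and Rrp7a (0.952). For Il12a they were Hacd3 (0.949), Trim12a (0.936) and Ctss (0.925), and for Tgfb1 Cebpz (0.905), Mrpl41 (0.900) and Cstb (0.895). Among the members themselves Il10 and Ebi3 had a coefficient of 0.85, and Il12a and Ebi3, the chains of IL-35, had -0.28. The points share libraries and fall in 3 groups.

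The promoter table of RefSeq (GRCm38.p6) held 4 starts of 3 of the 4 genes and none of Il10. The 250 bases before each start were searched on both strands for CACGTG, the E-box bound by Bhlhe40, for TTCNNNGAA, a STAT motif, for TGANTCA, an AP-1 motif, and for the NF-κB motif. Over 32851 promoters of the same length these were held by 6.02%, 7.02%, 6.75% and 3.90%. The window of Ebi3 (chr17:55952373-55952622, forward strand) held 1 NF-κB match, 44 bases before the start and in capitals below, while the windows of Il12a at both starts and of Tgfb1 held none of the 4. It is shown because Ebi3 is the IL-35 chain that rose in Eµ-MTCP1 mice and its window was alone in holding a match. A match is a description of letters and not a bound site.
Ebi3: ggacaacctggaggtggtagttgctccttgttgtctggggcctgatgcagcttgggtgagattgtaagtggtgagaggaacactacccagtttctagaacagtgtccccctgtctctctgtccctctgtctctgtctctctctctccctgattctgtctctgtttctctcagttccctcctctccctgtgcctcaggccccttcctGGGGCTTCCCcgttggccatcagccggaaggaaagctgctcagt

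Markers of other cell types that can make these cytokines were measured beside them. Of 14 genes of monocytes, macrophages and granulocytes, 1 passed in each line, Cd68, at 154 to 322 CPM in transgenic and 36.0 to 68.1 CPM in wildtype mice, where 9.37% and 9.15% of all genes tested passed. Other members lay the other way without passing. Cd14 was at 15.5 CPM or below in every transgenic mouse and at 17.6 CPM or above in wildtype mice, and in Eµ-TCL1 mice C1qa, C1qb, C1qc, Mpo and Elane lay below every wildtype mouse, with log2 fold changes from -4.90 to -2.99 and adjusted p from 0.0603 to 0.181 (edgeR). The list summed to 1035 to 4775 CPM in wildtype, 387 to 1597 CPM in Eµ-TCL1 and 898 to 2566 CPM in Eµ-MTCP1 mice, the highest wildtype value being that of Z2755. In the Eµ-TCL1 line dendritic-cell genes spanned 2.65 to 36.4 CPM and NK-cell genes 2.93 to 42.8 CPM, with B4376 highest in both as for Il12a. The other mice of the line did not follow this order. C1594 was lowest in both lists, at 2.65 and 2.93 CPM, with Il12a at 40.2 CPM. B4437 had 12.4 and 7.72 CPM, with Il12a at 8.33 CPM. Of the 3 dendritic-cell genes tested, Flt3, a growth factor receptor of dendritic-cell and other progenitors, passed as lower in Eµ-TCL1 mice (log2 -3.06 ± 0.66, adjusted p = 0.0171, edgeR), with log2 -1.80 ± 0.63 in Eµ-MTCP1 mice (adjusted p = 0.106, edgeR). None of the 4 NK-cell genes tested passed in either line. Foxp3, which defines regulatory T cells, had 8 reads in B4376, 2 in C1594, 0 in B4437 and in each Eµ-MTCP1 mouse, and 0 to 1 in wildtype mice. Ctla4, which regulatory T cells and also CLL B cells are known to express, rose in both lines. Plasma-cell genes summed to 822 to 1348 CPM in wildtype, 90.9 to 1940 CPM in Eµ-TCL1 and 316 to 2840 CPM in Eµ-MTCP1 mice. The part of these cells in the levels of the 4 cytokine genes was not tested.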

How the data were processed

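Splenic B cells of 9 mice had been sequenced, 1 library per mouse, and groups were taken from the deposited labels. The authors made estimated counts and TPM per transcript with Salmon 1.0.0, once on full-length mouse transcripts and once on coding sequences with human sequences added. Whole counts per gene were deposited by the authors, and the submitters' processing notes name HISAT2 2.0.6, featureCounts and build GRCm38.p4. Normalized values on a log2-like scale were deposited by the authors, made with tximport and DESeq2; columns of the authors' comparisons (fold changes, Wald statistics, p-values) were not used. The columns of samples left unmapped numbered 0.

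Estimated counts on coding sequences were summed per gene with GENCODE M21 and rounded; 459 of 57871 transcripts were not in M21 and stayed features of their own (at most 0.834% of reads). Genes passing filterByExpr were scaled by TMM and tested in edgeR 4.0.16 under R 4.3.3 by a two-sided quasi-likelihood test, fitted over all 9 libraries together, with Benjamini-Hochberg adjustment over all genes tested and a threshold of 0.05. Standard errors are the log2 fold change divided by the square root of F. Fits were tested on simulated data. Alternatives used DESeq2 1.42.0, limma 3.58.1, other scalings, filters and references, and left out each library.

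The members and lists were chosen with earlier results of these data known. Named genes are the members, their partner chains and receptors, listed genes with an adjusted p under 0.05 in any comparison, and for each member the 3 most similar genes with a mean of at least 5 CPM (prior count 2), immunoglobulin segments left out. Other listed genes were named after their values were seen. No p-value over the members was computed. Precision is limited by 3 mice per group, and counts near 3 reads by counting error. A further B-cell marker is not reported here.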

Additional observations from a re-analysis of the deposited data

How the results depend on the processing

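All values below are from edgeR unless another tool is named. Il10 kept its direction and its call against wildtype under all 20 alternatives in both lines, with log2 fold changes between 1.03 and 3.16 in Eµ-MTCP1 and between 1.32 and 3.63 in Eµ-TCL1 mice, the lowest in each case from the authors' normalized values with limma.

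Il12a in Eµ-MTCP1 against wildtype was not called with limma on normalized values (-1.13, adjusted p = 0.134), nor with Z2755 and Z2641 both left out, an alternative chosen after seeing the data (-2.76, adjusted p = 0.124); with single mice left out it ranged from -2.75 to -2.46. Ebi3 in the same comparison was not called with library size only (1.30, adjusted p = 0.0615), the gene count table (1.36, 0.0563), limma (1.08, 0.0591), only the 2 groups in the fit (1.5, 0.0581) or without Z2755 and Z2641 (1.56, 0.145), and it ranged from 0.94 to 1.84 with single mice left out. Tgfb1 there was called with library size only (-1.16, adjusted p = 0.0381), the gene count table (-1.0, 0.0334), limma (-1.06, 0.0486) and without Z2755 and Z2641 (-1.40, 0.0317), and ranged from -1.27 to -0.75 with single mice left out; with length offsets it was -1.72 (0.0523).

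In Eµ-TCL1 against wildtype Ebi3 was called with DESeq2 (1.37, adjusted p = 0.00664), no filter (1.39, 0.0302), the gene count table (1.44, 0.0468), length offsets (1.5, 0.0429) only the 2 groups (1.35, 0.00452), and without Z2551 (1.38, 0.0151) or Z2606 (1.35, 0.0124), and ranged from 1.25 to 1.51 with single mice left out. Tgfb1 was called with the gene count table (-0.92, 0.0465) and without Z2755 and Z2641 (-1.02, 0.0486), with length offsets it was -1.58 (0.0677), and Il12a ranged from 0.26 to 1.49 with single mice left out. In Eµ-TCL1 against Eµ-MTCP1 Il12a was called with DESeq2 (3.65, adjusted p = 2.37e-06) and no filter (3.65, 0.0346), and ranged from 2.88 to 4.13 with single mice left out. Ebi3 changed sign with the gene count table (0.07) and limma (0.04), and ranged from -0.49 to 0.45 with single mice left out.

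Genes called numbered 1054, 1029 and 5 in the 3 comparisons, 1657, 1697 and 74 with DESeq2, and 511 in the first without Z2755 and Z2641; the third gave 15 with no filter, 8 with the full-length reference and 2 with limma. With single mice left out they ranged from 531 to 1019, 520 to 1233 and 5 to 8. Listed genes called, members included, numbered 20, 15 and 0, were 13 in the first without Z2755 and Z2641, and 1 in the third with DESeq2 or no filter; with single mice left out they ranged from 9 to 22, 9 to 20 and 0 to 1. Where a mouse was left out fewer samples entered the fit; otherwise the cause was not tested. Wildtype mouse Z2755 was alone on its lane, so values without it are those within the other lane. No paired analysis was possible because the labels give no replicate numbers and tie no mouse of 1 group to a mouse of another.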
